A study of Mus musculus with 8 samples.

Results

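The mitochondrial genome transcripts were the 37 genes whose symbol starts with mt-, namely 13 protein genes, 2 rRNA genes and 22 tRNA genes, out of 57010 Ensembl gene identifiers in the count table. They were read in 8 libraries of mRNA selected by poly-T beads, each from 1 whole mouse retina, with 2 libraries for each of WT P15, rd10 P15, rd10 P18 and rd10 P21. WT mice were wild type on the C57BL/6J background. rd10 mice carry a mutation in Pde6b, the beta subunit of the rod phosphodiesterase, and lose their rods with age. No WT retina at P18 or P21 was analysed here, and against WT P15 the effects of age and genotype at these ages cannot be told apart. At P15 the comparison was at the same age. Total counts per library lay between 28076947 and 33724562, and 20457 genes passed the filter on low counts. Calls needed an absolute log2 fold change over 1 and a Benjamini-Hochberg adjusted p under 0.05 from the quasi-likelihood test of edgeR.

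The mitochondrial chromosome is a small circle that is read from a few start sites into long transcripts covering most of a strand. These are then cut into mRNAs, rRNAs and tRNAs. Its protein genes encode subunits of complexes I, III and IV and of ATP synthase, the machinery that makes ATP from oxygen. Photoreceptors pack many mitochondria into their inner segments and are among the most energy-demanding cells known. Parts of this chromosome have also been copied into the nuclear chromosomes as unprocessed pseudogenes, and reads from such a copy and from the mitochondrial gene can be indistinguishable.

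The result below turns on mt-Atp6, which encodes subunit a of ATP synthase, and on its nuclear copy Gm10925. In the GENCODE M21 annotation (GRCm38), mt-Atp6 lies at chrM:7927-8607 on the plus strand, and its first 43 bases are also the last 43 bases of mt-Atp8. Gm10925 lies at chr1:24613974-24614651 on the minus strand and matches bases 1 to 678 of the 681 bases of mt-Atp6 without a difference. The start of both genes and the end of mt-Atp8 are shown because reads there could be shared by mt-Atp8, mt-Atp6 and Gm10925. The bases that mt-Atp8 and mt-Atp6 have in common are in capitals. Over the rest of bases 1 to 678, reads could be shared by mt-Atp6 and Gm10925. The end of mt-Atp6 is shown with the 3 bases that the copy lacks in capitals.
mt-Atp8, last 80 bases (chrM:7890-7969): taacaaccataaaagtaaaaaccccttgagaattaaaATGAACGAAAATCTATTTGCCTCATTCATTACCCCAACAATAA
mt-Atp6, first 80 bases (chrM:7927-8006): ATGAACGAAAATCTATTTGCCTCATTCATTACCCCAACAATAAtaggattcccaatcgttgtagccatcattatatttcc
Gm10925, first 80 bases (chr1:24614572-24614651): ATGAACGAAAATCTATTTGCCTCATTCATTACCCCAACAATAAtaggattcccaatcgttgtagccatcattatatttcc
mt-Atp6, last 40 bases (chrM:8568-8607): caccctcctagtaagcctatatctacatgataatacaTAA

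Of the 13 mitochondrial protein genes, 7 had a copy among the annotated transcripts that was at least 99% identical over at least 95% of the copy, and all 7 copies lay on chromosome 1 on the minus strand. The copies Gm28661 of mt-Co2, Gm28437 of mt-Co3 and Gm10222 of mt-Nd4l matched without a difference. Gm28439 matched 63.6% of mt-Nd4 without a difference. The copies of mt-Nd3 and mt-Co1 each differed at 1 base, which is in capitals in the windows that follow, with positions counted from 1 at the first base of the mitochondrial gene. The substitution between mt-Nd3 and Gm28438 was T3C, and that between mt-Co1 and Gm29216, which covers 31.3% of the gene, was A1066T.
mt-Nd3 (chrM:9459-9481): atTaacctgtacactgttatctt
Gm28438 (chr1:24613097-24613119): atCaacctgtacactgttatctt
mt-Co1 (chrM:6390-6413): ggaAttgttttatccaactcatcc
Gm29216 (chr1:24616165-24616188): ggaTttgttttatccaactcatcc

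Mitochondrial genes took a few percent of all counts, and the share was higher in WT than in any rd10 library. The share was 3.83% and 3.86% in WT P15, 3.21% and 3.27% in rd10 at P15, 3.50% and 3.03% at P18, and 3.07% and 3.07% at P21. Both WT libraries lay above all 6 rd10 libraries. The mean was 3.85% ± 0.0193 (SD, n = 2) in WT P15, and the ratio to it was 0.843 in rd10 at P15, 0.849 at P18, and 0.798 at P21. With 2 libraries a side, the exact permutation test (two-sided) has a smallest p of 0.333, which was the value in each of these comparisons. The 95% Wilson interval of a library's share reached at most 0.007 percentage points to either side of it and covers counting error only. Without mt-Atp6, the ratio in rd10 P15 was 0.889, so that mt-Atp6 made up part of the lower share at that age.

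Rod markers, like the mitochondrial share, were highest in the WT libraries. Among the rd10 libraries they did not follow the share. The rod sums of rd10 P18 were almost equal at shares of 3.50% and 3.03%, and those of rd10 P21 differed at shares of 3.07% and 3.07%. The summed level of 10 rod genes was 41201 to 50963 CPM (TMM-normalized counts scaled to library size) in WT P15, 30623 to 32625 in rd10 at P15, 27114.5 to 27118.3 at P18, and 19597 to 25600 at P21, with none at 0. The part of rods in the mitochondrial values was not tested. In whole retina, fewer cells of a type and less RNA per cell cannot be told apart. The sum over 8 retinal pigment epithelium genes was 388 to 553 CPM in WT P15, 605 to 647 in rd10 at P15, 294 to 330.1 at P18, and 404 to 407 at P21. Rlbp1 made up most of each sum, at 271 to 426 CPM, and the other genes differed more. Ttr stood at 16.2 CPM in WT replicate 1 but at 65.4 in replicate 2. The rd10 retinas had 99.4 and 124 at P15, and 9.92 to 18.9 over P18 and P21. Rpe65, Lrat, Rgr, Tyrp1 and Pmel were also higher in WT replicate 2 than in replicate 1. They were higher in rd10 P15 than at the later ages, and of the genes besides Rlbp1 only Best1 did not share this. Rlbp1 had 426 and 346 CPM in rd10 P15 and 375 and 369 at P21, so that these libraries overlapped. The part of that tissue in the mitochondrial values was not tested either. The 8 cone genes summed to 1409 to 1756 CPM in WT P15, against 933 to 1008 in rd10 at P15, 1395 to 1478 at P18, and 1635 to 1714 at P21. Gnb3 had 322 and 321 CPM in WT P15, against 594 and 524 in rd10 at P18 and 516 and 485 at P21. At P18 Opn1sw had 380 and 396 CPM, against 510 and 369 in WT P15. The remaining cone genes were below both WT libraries at P18, so that the sum there did not stand for most of the list. The 5 red blood cell genes summed to 177 to 188 CPM in WT P15, 67.1 to 84.6 in rd10 at P15, 56.8 to 160 at P18, and 125 to 133 at P21. Their sum was thus also highest in the WT libraries, though Alas2 did not share this. The part of blood in the mitochondrial values was not tested. Lens genes reached at most 4.95 CPM and muscle genes at most 4.71.

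The labels give no sex, and the sex genes differed between the groups. Both WT libraries, rd10 P18 replicate 2 and rd10 P21 replicate 2 had 3 to 19 Y-linked counts and 26338 to 80032 Xist counts. Both rd10 P15 libraries, rd10 P18 replicate 1 and rd10 P21 replicate 1 had 5530 to 7193 Y-linked counts and 44 to 89 Xist counts. At P15 sex and genotype therefore cannot be told apart.

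In WT P15, mt-Co1, the catalytic subunit of complex IV, had the highest level per length among the protein and rRNA genes. It stood at 7857 CPM per kb ± 109 (SD, n = 2), followed by mt-Cytb, the cytochrome b of complex III, at 5037 ± 137, and mt-Nd1 of complex I at 3962 ± 75.8. mt-Co1, mt-Cytb and mt-Nd1 together took 53.7% to 58.0% of the mitochondrial counts over the 8 libraries. The order went on with mt-Atp6 at 3803 CPM per kb, mt-Co2 at 3568, mt-Atp8 at 3133, mt-Co3 at 2996, mt-Nd4 at 2159, mt-Nd2 at 1928, mt-Nd5 at 1791, mt-Nd4l at 1496 and mt-Nd3 at 961. None of the 14 neighbouring pairs in this order had overlapping WT libraries, though the closest, mt-Nd1 over mt-Atp6, differed by a ratio of only 1.04.

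mt-Nd6 of complex I, the protein gene on the strand opposite to the other 12, was lowest at 128 CPM per kb ± 4.31. The small and large ribosomal RNAs mt-Rnr1 and mt-Rnr2 stood at 346 and 775 CPM per kb and took 3.64% to 4.84% of mitochondrial counts. The library preparation selected poly(A) RNA, and the authors describe no step that marks the strand. Reads in the 14 bases shared by mt-Nd5 and mt-Nd6 therefore cannot be assigned to one of them. Without such a step, reads from the opposite strand elsewhere in mt-Nd6 cannot be told apart from its own either. The levels of genes with a near-identical copy are uncertain to the extent that reads were counted on both.

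**Figure D1:**
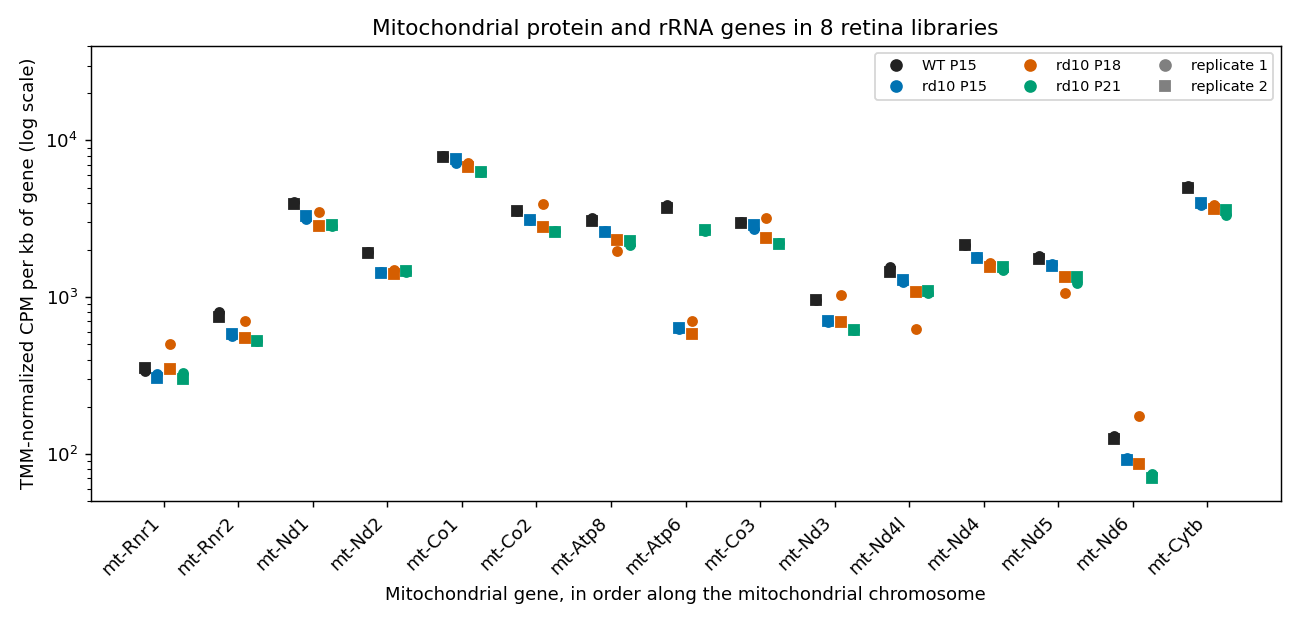
Level of the 13 protein and 2 rRNA genes of the mitochondrial chromosome in each library, as TMM-normalized CPM per kb of gene on a log axis, with genes in chromosome order, groups by colour and replicates by marker shape. mt-Atp6 falls into a high set of 4 libraries (WT P15 and rd10 P21) and a low set of 4 (rd10 P15 and rd10 P18), while mt-Nd6 is the lowest gene.

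The libraries of rd10 P18 differed from each other more than those of any other group. The log2 ratio of replicate 1 to replicate 2 exceeded 0.2 in size for 11 of the 15 protein and rRNA genes in rd10 P18 and for 0 of 15 in each other group. The median size was 0.342 in rd10 P18 against 0.0320 to 0.0557 in the others, while over all genes it was 0.368 against 0.210 to 0.214. The ratio was 1.03 for mt-Nd6, 0.57 for mt-Nd3, 0.52 for mt-Rnr1, 0.48 for mt-Co2 and 0.42 for mt-Co3, all higher in replicate 1. It was -0.79 for mt-Nd4l, -0.34 for mt-Nd5 and -0.22 for mt-Atp8, all lower in replicate 1. The ratio for mt-Atp6 was 0.29, small beside its difference from WT.

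**Figure D2:**
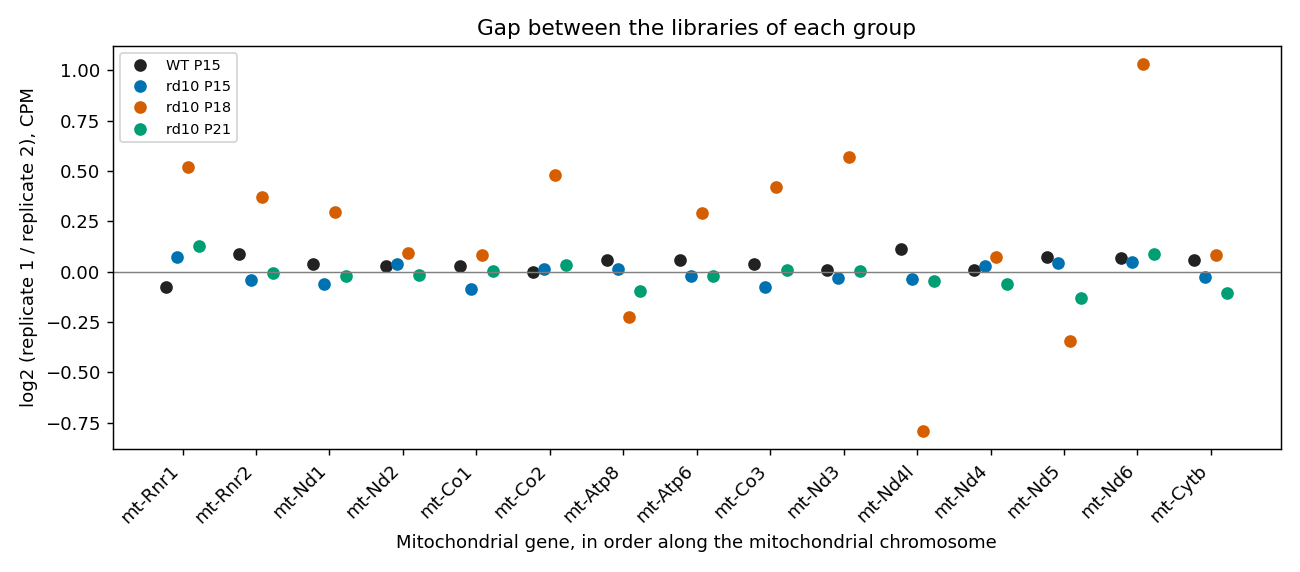
log2 ratio of replicate 1 to replicate 2 in CPM for each of the 13 protein and 2 rRNA genes, with genes in chromosome order and 1 point per group. The points of rd10 P18 spread from -0.79 for mt-Nd4l to 1.03 for mt-Nd6, while those of the other groups stay between -0.13 and 0.13.

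mt-Atp6 was the only mitochondrial gene called in any comparison by edgeR, and it was low in rd10 P15 and rd10 P18. Its counts were 71455 and 78434 in WT P15, 13414 and 12300 in rd10 at P15, 16199 and 12535 at P18, and 62578 and 51940 at P21. The 4 libraries of rd10 P15 and P18 lay below the other 4 without overlap. Against WT P15, mt-Atp6 fell by 2.59 on the log2 scale in rd10 P15 (SE 0.15, fold 0.166, edgeR Benjamini-Hochberg adjusted p = 0.000658). It fell by 2.56 in rd10 P18 (SE 0.15, fold 0.170, edgeR Benjamini-Hochberg adjusted p = 0.000477). Of all genes tested, 0.0929% were called lower in rd10 P15 (0.23% in either direction), against 0.332% in rd10 P18 (1.48% in either direction). With each of the 8 libraries left out in turn, the log2 fold change ranged from -2.62 to -2.56 in rd10 P15 and from -2.71 to -2.42 in rd10 P18, and mt-Atp6 was called each time.

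At P21 mt-Atp6 lay within the range of the other mitochondrial protein genes. The log2 fold change of rd10 P21 against WT P15 was -0.52 (SE 0.14, edgeR Benjamini-Hochberg adjusted p = 0.168), with both rd10 P21 libraries below both WT libraries in CPM. Against rd10 P15, mt-Atp6 rose by 2.07 at P21 (SE 0.14, fold 4.19, edgeR Benjamini-Hochberg adjusted p = 0.00236), where 0.298% of all genes were called higher. Against rd10 P18 it rose by 2.04 (SE 0.14, fold 4.10, edgeR Benjamini-Hochberg adjusted p = 0.00391), where 0.00489% were called higher, mt-Atp6 being the 1 gene. Between rd10 P18 and rd10 P15 the log2 fold change was 0.03 (SE 0.14, edgeR Benjamini-Hochberg adjusted p = 0.954). The libraries of rd10 P18, and those of rd10 P21, differed in their sex genes, and the part of sex in these values was not tested.

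The identical copy did not share this pattern. Gm10925 had 75341 and 83065 counts in WT P15, 68533 and 63104 in rd10 at P15, 80473 and 63823 at P18, and 67125 and 55609 at P21. In WT P15 mt-Atp6 therefore had 94.8% and 94.4% of the count of its copy, and in rd10 P21 93.2% and 93.4%. In rd10 P15 it had 19.6% and 19.5%, and in rd10 P18 20.1% and 19.6%. The count of Gm10925 exceeded that of mt-Atp6 by 3669 to 4631 in the WT P15 and rd10 P21 libraries and by 50804 to 64274 in the rd10 P15 and rd10 P18 libraries.

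The log2 fold change of Gm10925 against WT P15 was -0.31 (SE 0.13) in rd10 P15, -0.31 (SE 0.13) in rd10 P18 and -0.50 (SE 0.13) in rd10 P21, with edgeR Benjamini-Hochberg adjusted p = 0.397, 0.281 and 0.171. Gm10925 thus lay within the range of the other mitochondrial protein genes at all 3 ages. When the counts of each mitochondrial gene and its copy were summed, an alternative chosen after seeing the data, the log2 fold change of mt-Atp6 with Gm10925 was -1.02 in rd10 P15 and -1.01 in rd10 P18 (edgeR Benjamini-Hochberg adjusted p = 0.0376 and 0.0185), which was called in both. The sum was 0.50 higher on the log2 scale in rd10 P21 than in rd10 P15 and 0.50 higher than in rd10 P18, and neither difference was called (edgeR Benjamini-Hochberg adjusted p = 0.184 and 0.411).

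Each other gene with a copy over nearly its whole length kept a steady ratio to it. mt-Co2 had 100.0% to 100.2% of the count of Gm28661 over the 8 libraries, mt-Co3 had 99.9% to 100.0% of that of Gm28437, mt-Nd3 had 102% to 103% of that of Gm28438, and mt-Nd4l had 100.4% to 100.8% of that of Gm10222. The counts of a mitochondrial gene and its copy were thus almost equal in each library for these 4 pairs. mt-Atp6 with Gm10925 ranged from 19.5% to 94.8%. Of the 2 genes with partial copies, mt-Co1 had 497% to 704% of the count of Gm29216 and mt-Nd4 had 237% to 307% of that of Gm28439, with rd10 P18 replicate 1 lowest for mt-Co1 and highest for mt-Nd4. Whether the counts of mt-Atp6 reflect transcript amounts or the assignment of reads between identical sequences was not tested, since only summed counts were used here.

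The genes beside mt-Atp6 did not gain what it lacked. Along the plus strand, mt-Co2 and mt-Atp8, which encodes a small subunit of ATP synthase, lie before mt-Atp6, and mt-Co3, a core subunit of complex IV, follows with 1 base of overlap. Per 1000 counts of the 12 other mitochondrial protein genes, mt-Atp6 had 72.02 and 71.0 in WT P15, 13.8 and 13.7 in rd10 at P15, 15.7 and 13.9 at P18, and 67.2 and 66.7 at P21. On the same scale mt-Atp8 had 17.8 and 17.5, 17.4 and 16.8, 13.04 and 16.6, and 16.5 and 17.2. It was no higher in the libraries with low mt-Atp6 than in WT.

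On this scale mt-Co3 had 64.9 and 64.8 in WT P15, 69.1 and 71.1 in rd10 at P15, 81.5 and 66.4 at P18, and 64.9 and 63.1 at P21. mt-Co2 had 66.6 and 68.2, 69.0 and 66.6, 87.1 and 68.0, and 68.3 and 65.2. The mean of mt-Co3 in rd10 P15 was 5.21 counts per 1000 above that in WT P15, and the difference of the mt-Atp6 means was -57.8. In rd10 P18 these differences were 9.06 and -56.7, and mt-Co2 was 10.1 above WT P15 there, through replicate 1. mt-Atp6 took 80.2% of the summed counts of mt-Atp8 and mt-Atp6 in both WT P15 libraries, 44.2% and 44.8% in rd10 at P15, 54.6% and 45.7% at P18, and 80.3% and 79.5% at P21. The sum over mt-Co2, mt-Atp8, mt-Atp6 and mt-Co3 was 219540 and 244779 counts in WT P15 and 164563 and 151497 in rd10 P15.

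**Figure D3:**
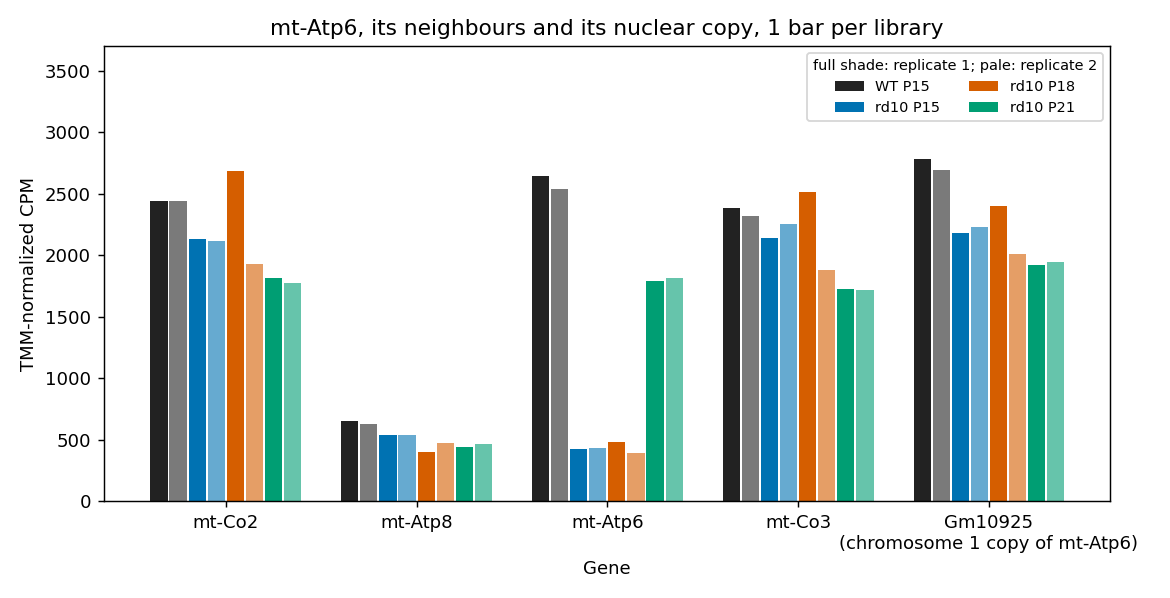
TMM-normalized CPM of mt-Co2, mt-Atp8, mt-Atp6, mt-Co3 and the nuclear copy Gm10925, with 1 bar per library in the order WT P15, rd10 P15, rd10 P18 and rd10 P21. The mt-Atp6 bars of rd10 P15 and rd10 P18 stand at 395 to 483 CPM, against 1787 to 2641 in the other 4 libraries, while the bars of Gm10925 stay between 1916 and 2784.

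The 12 protein genes besides mt-Atp6 were mostly below WT by a smaller amount, and none was called. Their median log2 fold change was -0.26 in rd10 P15 (range -0.47 to -0.09), -0.37 in rd10 P18 (range -0.81 to 0.03) and -0.47 in rd10 P21 (range -0.82 to -0.32), beside medians of -0.01, 0.01 and 0.00 over all genes tested. With mt-Atp6 included, both rd10 libraries lay below both WT libraries for 13 of 13 protein genes in rd10 at P15, 9 of 13 at P18, and 13 of 13 at P21. The same held for 24.9%, 22.9% and 24.2% of all genes tested. The genes come from shared transcripts and the same libraries, so they are not independent of each other. In rd10 P21, where 0.386% of all genes were called, edgeR called 0 of the 29 mitochondrial genes tested, DESeq2 called 0 as well, and 15 had an unadjusted p under 0.05 beside 11.8% of all genes.

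Complex I, which takes electrons from NADH, has 7 subunits encoded here. Their median log2 fold change was -0.30 in rd10 at P15, -0.41 at P18, and -0.48 at P21. mt-Nd2 had 2021 and 1983 CPM in WT P15, against 1510 and 1470 in rd10 at P15, 1552 and 1454 at P18, and 1501 and 1520 at P21. All 6 rd10 libraries lay below both WT libraries, at log2 fold changes of -0.43, -0.41 and -0.41 (SE 0.12 each), with edgeR Benjamini-Hochberg adjusted p = 0.1996, 0.134 and 0.221. mt-Nd1 and mt-Nd4 had log2 fold changes of -0.30 and -0.27 in rd10 P15 and of -0.48 and -0.50 in rd10 P21.

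Within complex I, mt-Nd4l, mt-Nd5, mt-Nd3 and mt-Nd6 varied most in rd10 P18. mt-Nd4l had 461 and 427 CPM in WT P15, against 370 and 380 in rd10 at P15, 186 and 322 at P18, and 317 and 327 at P21, so that rd10 P18 replicate 1 was the lowest library by far. Its log2 fold change in rd10 P18 was -0.81 (SE 0.23, edgeR Benjamini-Hochberg adjusted p = 0.123). Without rd10 P18 replicate 2, which left 1 library in that group, it was -1.26. mt-Nd5 had a log2 fold change of -0.15 in rd10 at P15, -0.58 at P18, and -0.47 at P21. mt-Nd3 stood at -0.46, -0.16 and -0.63.

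mt-Nd6 had 68.0 and 64.9 CPM in WT P15, against 48.9 and 47.3 in rd10 at P15, 91.2 and 44.6 at P18, and 38.7 and 36.4 at P21. The rd10 P18 libraries lay on either side of WT, and those of rd10 P15 and P21 lay below it. The log2 fold changes were -0.47 (SE 0.28) in rd10 P15, 0.03 (SE 0.28) in rd10 P18 and -0.82 (SE 0.28) in rd10 P21, with edgeR Benjamini-Hochberg adjusted p = 0.556, 0.972 and 0.298. Without rd10 P18 replicate 1, the value in rd10 P18 was -0.57.

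mt-Cytb, the 1 subunit of complex III encoded here, had 5874 and 5651 CPM in WT P15, against 4452 and 4529 in rd10 at P15, 4408 and 4162 at P18, and 3795 and 4090 at P21. Every rd10 library lay below both WT libraries. The log2 fold changes were -0.36, -0.43 and -0.55 (SE 0.12 each), with edgeR Benjamini-Hochberg adjusted p = 0.285, 0.131 and 0.118.

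Complex IV, which passes electrons to oxygen, had the smallest medians at P15 and P18, at -0.10 each, and stood at -0.44 in rd10 P21. mt-Co1 had 12258 and 12020 CPM in WT P15, against 11027 and 11705 in rd10 at P15, 11120 and 10493 at P18, and 9723 and 9715 at P21. Its log2 fold changes were -0.09, -0.17 and -0.32 (SE 0.12 each), with edgeR Benjamini-Hochberg adjusted p = 0.829, 0.519 and 0.347. mt-Co2 and mt-Co3 stood at -0.20 and -0.10 in rd10 P15, at -0.08 and -0.10 in rd10 P18, and at -0.44 and -0.45 in rd10 P21. In rd10 P18 both genes were above WT in replicate 1 and below WT in replicate 2, and with library size as the only scaling their values there were 0.05 and 0.03, when the median over all genes was 0.13.

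ATP synthase has mt-Atp8 as its other mitochondrial subunit. mt-Atp8 had 652 and 626 CPM in WT P15, against 539 and 534 in rd10 at P15, 402 and 470.0 at P18, and 438 and 468 at P21. All rd10 libraries lay below both WT libraries, at log2 fold changes of -0.25, -0.55 and -0.50 (SE 0.13 each), with edgeR Benjamini-Hochberg adjusted p = 0.498, 0.0848 and 0.170. The fall of mt-Atp6 in rd10 P15 was thus not seen in the gene that overlaps it.

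**Figure D4:**
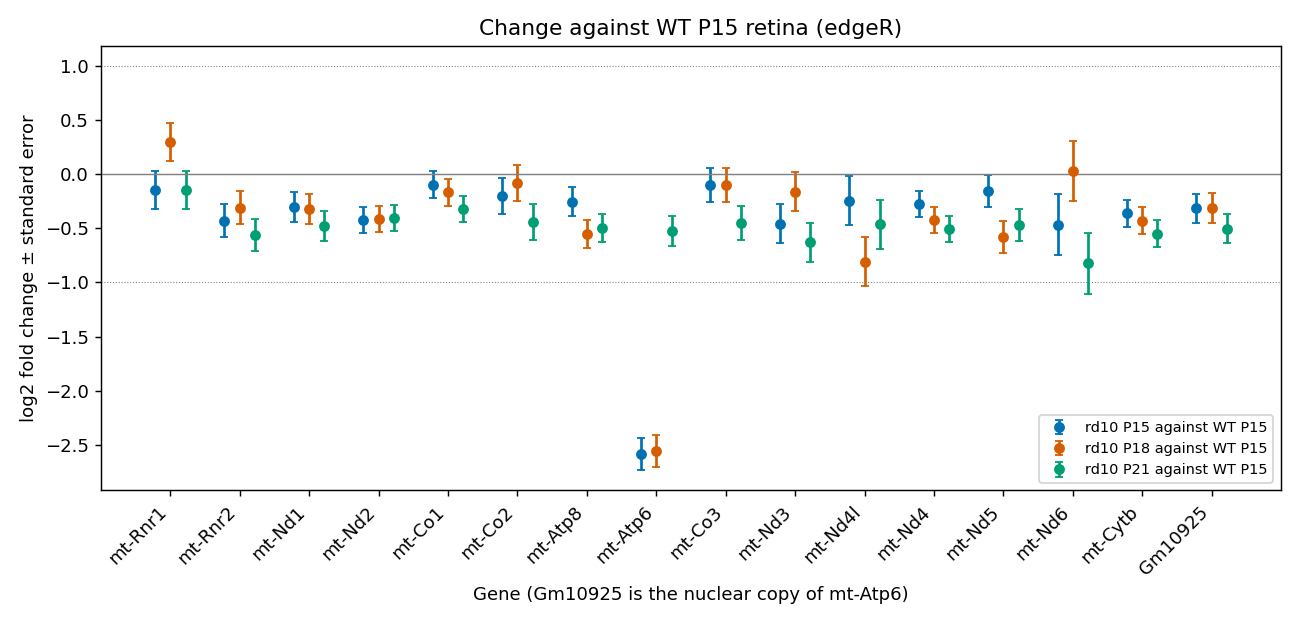
log2 fold change with its standard error (edgeR) of the 13 protein and 2 rRNA genes and of Gm10925 in rd10 P15, rd10 P18 and rd10 P21 against WT P15, with dotted lines at the fold threshold. mt-Atp6 lies at -2.59 and -2.56 in rd10 P15 and P18, apart from all others, while Gm10925 lies at -0.31 in both.

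The rRNAs are made from the same strand as most mRNAs and build the ribosome of the mitochondrion. mt-Rnr2 had 1263 and 1190 CPM in WT P15, against 899 and 924 in rd10 at P15, 1116 and 863 at P18, and 829 and 833 at P21, below both WT libraries in every rd10 library. Its log2 fold changes were -0.43, -0.31 and -0.56 (SE 0.15 each), with edgeR Benjamini-Hochberg adjusted p = 0.296, 0.339 and 0.172. mt-Rnr1 had 322 and 339 CPM in WT P15, against 307 and 292 in rd10 at P15, 480 and 334 at P18, and 312 and 286 at P21. Its log2 fold change was -0.14 in rd10 at P15, 0.30 at P18, and -0.14 at P21 (SE 0.18 each, edgeR Benjamini-Hochberg adjusted p = 0.430 at P18). Of the rd10 P18 libraries, replicate 1 lay above both WT libraries and replicate 2 between them. After poly(A) selection, rRNA counts do not give the total amount of these RNAs.

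The 22 tRNA genes together had 816 to 1369 counts per library, or 0.0871% to 0.111% of the mitochondrial counts. Mature tRNAs have no poly(A) tail and are shorter than the fragments kept in the preparation. Of the 22, 14 passed the filter, and none was called. Their median log2 fold change was -0.44 in rd10 at P15, -0.67 at P18, and -0.55 at P21, with 13 of 14 negative at each age. The 8 that did not pass were mt-Tf, mt-Tq, mt-Ta, mt-Tn, mt-Ts1, mt-Th, mt-Ts2 and mt-Tl2, with 0 to 9 counts per library. Of these 8, 4 were at 0 in at least 1 library, which allows up to 3 counts there, and with so few counts none of the 8 was tested.

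mt-Tl1, a tRNA for leucine that lies directly after mt-Rnr2, had the most counts of the tRNA genes. It had 542 and 693 counts in WT P15, 494 and 488 in rd10 at P15, 423 and 389 at P18, and 421 and 380.0 at P21. In CPM all rd10 libraries lay below both WT libraries, at log2 fold changes of -0.37, -0.77 and -0.75 (SE 0.18 each), with edgeR Benjamini-Hochberg adjusted p = 0.468, 0.0818 and 0.140. mt-Tm, a tRNA for methionine, stood at -0.61, -0.69 and -0.53 (SE 0.28 each). mt-Tw, a tRNA for tryptophan, stood at 0.38 in rd10 P15, with both libraries above WT, as for 24.8% of all genes, and at -0.30 and -0.48 at P18 and P21 (SE 0.36 to 0.37).

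The other 11 tRNA genes tested, mt-Tv, mt-Ti, mt-Tc, mt-Ty, mt-Td, mt-Tk, mt-Tg, mt-Tr, mt-Te, mt-Tt and mt-Tp, had 0 to 77 counts per library. The log2 fold changes of the 14 genes reached from -2.53 to 0.38 in rd10 P15, from -1.52 to 0.77 in rd10 P18 and from -2.27 to 0.20 in rd10 P21. mt-Tr, a tRNA for arginine, had 70 and 75 counts in WT P15, 28 and 46 in rd10 at P15, 30 and 27 at P18, and 16 and 32 at P21. No rd10 library reached the WT counts, and its log2 fold changes were -0.996, -1.52 and -1.67 (SE 0.62 to 0.64), with edgeR Benjamini-Hochberg adjusted p = 0.576, 0.268 and 0.353.

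Among the rd10 groups, mt-Atp6 was the 1 mitochondrial gene called. Between rd10 P18 and rd10 P15, where 0.591% of all genes were called, edgeR called 0 of 29 mitochondrial genes, DESeq2 called 0, and 3 had an unadjusted p under 0.05 beside 12.9% of all genes. The median log2 fold change of the 12 protein genes besides mt-Atp6 was -0.04 (range -0.56 to 0.50). Between rd10 P21 and rd10 P15 it was -0.23 (range -0.36 to 0.02), with 11 of 12 negative and none called. Between rd10 P21 and rd10 P18 it was -0.14 (range -0.86 to 0.34), with 8 of 12 negative and none called. The medians with rd10 P18 turned on 1 library. Without rd10 P18 replicate 1 that of P18 against P15 was -0.16, with 12 of 12 negative, and that of P21 against P18 was -0.07. Without replicate 2 they were 0.02 and -0.18. In the fit of all 8 libraries, 0.401% of all genes were called in either direction in rd10 P21 against rd10 P15. In rd10 P21 against rd10 P18 it was 0.0196%.

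Mitochondrial genes are read, copied and processed by proteins made in the nucleus, and 3 lists of such genes were read beside them. Of 15 genes for mitochondrial transcription and its control, none was called against WT P15, with median log2 fold changes of -0.11, -0.11 and -0.13. Ppargc1b in rd10 P18 against WT P15 had an edgeR Benjamini-Hochberg adjusted p = 0.0421 but, at -0.81 (SE 0.15), did not reach the fold threshold. Among the rd10 groups, the 1 gene of this list called was Ppargc1b, a coactivator of genes for mitochondrial function. It had 92.5 and 84.3 CPM in WT P15, against 99.9 and 113 in rd10 at P15, 44.4 and 56.4 at P18, and 52.5 and 52.2 at P21. The rd10 P18 and P21 libraries lay below the other 4 (0.0684% and 0.103% of all genes were called lower than in rd10 P15 at P18 and P21). Against rd10 P15, Ppargc1b fell by 1.08 at P18 (SE 0.15) and by 1.02 at P21 (SE 0.15), with edgeR Benjamini-Hochberg adjusted p = 0.0342 and 0.0411.

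Of 8 genes for replication of the mitochondrial chromosome and 22 for cutting, stabilising and degrading its RNA, none was called in any of the 6 comparisons. Their medians against WT P15 lay between -0.24 and 0.01. The largest changes in the replication list were those of Dna2, a nuclease and helicase, at 0.84 in rd10 P21 against rd10 P15 (SE 0.47), and of Polg2, the accessory subunit of the mitochondrial DNA polymerase, at -0.73 in the same comparison (SE 0.20), with edgeR Benjamini-Hochberg adjusted p = 0.501 and 0.184. In the RNA list they were those of 1110008L16Rik, with 0.887 to 5.09 CPM, at 1.30 in rd10 P15 against WT P15 (SE 0.56), and of Hsd17b10, a subunit of mitochondrial RNase P, at -0.45 in rd10 P21 against rd10 P18 (SE 0.34), with edgeR Benjamini-Hochberg adjusted p = 0.401 and 0.639.

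The nuclear subunits of ATP synthase and its inhibitor Atpif1 were read beside mt-Atp6 and mt-Atp8. Of the 18 genes tested, none was called in any comparison. Their median log2 fold change against WT P15 was 0.17 in rd10 P15 and 0.28 in rd10 P18, the ages at which mt-Atp6 was low, with 15 of 18 positive at each age, and -0.30 in rd10 P21, with 18 of 18 negative. Between rd10 P21 and rd10 P18 the median was -0.52, with 18 of 18 negative and 12 at an unadjusted p under 0.05, beside 10.8% of all genes. The largest changes were those of Atp5mpl, at -0.81 in rd10 P21 against rd10 P15 (SE 0.19), and of Atp5j2, at -0.79 in rd10 P21 against rd10 P18 (SE 0.25), with edgeR Benjamini-Hochberg adjusted p = 0.146 and 0.431. Atp5j2 had 139 CPM in replicate 1 and 75.3 in replicate 2 of rd10 P18, so that the libraries of that group differed. Every gene of this list was likewise higher in replicate 1 of rd10 P18 than in replicate 2. In replicate 1 all of them lay above both WT libraries. In replicate 2 some lay above both, some between them and some below both. The medians with rd10 P18 thus leaned on replicate 1, and the list was not tested without it. The difference between this list and mt-Atp6 was not tested.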

How the data were processed

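Whole-retina mRNA was sequenced by the authors on an Illumina NovaSeq from 8 libraries in 4 groups of 2. The deposited values are raw read counts per Ensembl gene, whole numbers without normalization. The submitters' processing notes name HISAT2 without a version. The counting tool, its handling of reads that match several places, the genome build and the annotation were not given in the sources used here. Whether a read of a mitochondrial gene was also counted on a nuclear copy was therefore not tested. mt-Co2 had 100.0% to 100.2% of the count of Gm28661, and mt-Co3 had 99.9% to 100.0% of that of Gm28437. The counts of such a gene and its copy are thus not read here as separate measurements.

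Symbols, positions and sequences came from GENCODE M21 (GRCm38), which names 52029 of the 57010 identifiers, so that the authors used another annotation release. Nuclear copies were searched with blastn 2.17.0 among annotated transcripts in place of the whole genome as planned (at least 95% identity over 100 bases), and copies outside annotated genes were not analysed here. Genes were kept by filterByExpr (minimum count 10, minimum total count 15), scaled by TMM (factors 0.937 to 1.063) and fitted in edgeR 4.0.16 (limma 3.58.1, R 4.3.3) with the robust quasi-likelihood model over all 8 libraries, leaving 4 residual degrees of freedom. The standard error is the log2 fold change divided by the square root of F. P-values were adjusted by Benjamini-Hochberg over 20457 genes. CPM are TMM-normalized. The fit was tested on simulated data.

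Groups came from the labels. Each library is a separate retina, and nothing in the labels says whether retinas came from separate animals. By their sex genes, the libraries of rd10 P18 came from separate animals, and so did those of rd10 P21. Within WT P15 and within rd10 P15 this is not known. P-values measure the spread between these libraries. All 3 comparisons with WT P15 use the same control libraries. Replicate numbers are not said to pair the retinas. Total counts per library were 28076947 to 33724562, which leaves counting error small for mRNAs and large for tRNAs. Alternatives were DESeq2 1.42.0, RLE factors, library size only, scaling from nuclear genes, no filter, only the 4 libraries compared, a replicate block, no fold threshold and each library left out.

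The mitochondrial genes and the nuclear lists were chosen with earlier results of these data known. All protein and rRNA genes were named, of the tRNA genes those that passed the filter, and of each nuclear list the genes called or, with none called, the 2 largest changes. Gm10925, the copies and the tRNA genes that did not pass were named after their values were seen. For the ATP synthase, replication and RNA lists the 2 largest changes over the 6 comparisons were taken, 1 per gene. Plots used matplotlib 3.10.9 (Python 3.11.15).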

Additional observations from a re-analysis of the deposited data

Results flagged for a closer look

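mt-Atp6 differed between the ages of rd10 retina. Set against the same WT P15 libraries, its log2 fold change was -2.59 at P15, -2.56 at P18 and -0.52 at P21. The difference itself was tested directly between the rd10 groups, and mt-Atp6 rose by 2.07 in rd10 P21 against rd10 P15 and by 2.04 in rd10 P21 against rd10 P18 (edgeR Benjamini-Hochberg adjusted p = 0.00236 and 0.00391, higher in 2 of 2 libraries in both). For its identical nuclear copy Gm10925 the same differences were -0.19 and -0.19 (SE 0.13 each, edgeR Benjamini-Hochberg adjusted p = 0.611 and 0.608). Groups of 2 libraries are too small to look for single libraries that lie far from the others of their group.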

How the results depend on the processing

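The number of mitochondrial genes called was within 1.5 times the reported number in 96 of 102 alternatives over the 6 comparisons. With only the 4 libraries of rd10 P21 and rd10 P18 in the fit, it was 0 in place of 1, and mt-Atp6 had a log2 fold change of 2.03 with an edgeR adjusted p of 0.184. With copies summed, it was 0 in rd10 P21 against rd10 P15 and 0 in rd10 P21 against rd10 P18. The number also moved without rd10 P18 replicate 2, which left 1 library in that group. Many more of all genes were called in that fit than in the fit of all 8 libraries. mt-Nd4l was then added in rd10 P18 against WT P15 and against rd10 P15, and mt-Nd6 in rd10 P21 against rd10 P18. mt-Atp6 in rd10 P15 and P18 against WT P15 was called in 16 of 16 alternatives each (log2 fold changes of -2.62 to -1.02 and -2.71 to -1.01).

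Of 858 values of single genes, 13 changed sign, none of them called, and all in comparisons with rd10 P18. Against WT P15 these were mt-Co2 and mt-Co3 with library size only (0.047 and 0.032) and mt-Nd6 under the replicate block (-0.018). With 1 library left out, mt-Co2 ranged from -0.34 to 0.14, mt-Co3 from -0.32 to 0.098, mt-Nd3 from -0.48 to 0.095 and mt-Nd6 from -0.57 to 0.46. Each of these was lowest without rd10 P18 replicate 1 and highest without rd10 P18 replicate 2, and mt-Nd6 was -0.0021 without WT P15 replicate 2. Against rd10 P15 they were Gm10925 with RLE factors (-0.0011) and under the replicate block (-0.0013). With 1 library left out, Gm10925 ranged from -0.13 to 0.12 and mt-Atp6 from -0.12 to 0.17. The cause was not tested. The replicate block left the number of mitochondrial genes called at 1, 1, 0, 0, 1 and 1 in the 6 comparisons, and deviations of same-numbered libraries had correlations of -0.0245 to 0.0594.

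The ratio of the mitochondrial share to WT P15 was 0.817 in rd10 P15 and 0.739 in rd10 P21 per TMM-scaled nuclear counts. In rd10 P15 it was 0.889 without mt-Atp6 and 0.854 with the copies included. Library size as the only scaling moved the median of all genes from 0.01 to 0.13 in rd10 P18 against WT P15 and from 0.00 to 0.11 in rd10 P21 against WT P15, and the 12 protein genes besides mt-Atp6 then had 9 and 12 negative values. With 2 libraries a group and no reads, shared reads and small differences could not be resolved.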
